A study of Mus musculus with 72 samples.

Results

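Nrg3 and Erbb4 are a ligand gene and its receptor gene, and both are recurrent DNA-break cluster (RDC) genes, that is, long genes in which neural progenitor cells under replication stress break at many sites. The junctions described here were chosen by position: every junction of the 60 LAM-HTGTS libraries that fell in Nrg3 on chromosome 14 (chr14:38368952-39473088, GRCm38/mm10) or in a window of 1 Mb over Erbb4 on chromosome 1 (chr1:68100001-69100000). The pair itself was selected on earlier density results of these libraries, namely the difference between aphidicolin with and without ART558 at the baits on chromosomes 6, 8 and 12. Those densities are therefore given as values with no test. The rule found 437 junctions, 343 in Nrg3 and 94 in the Erbb4 window, among 591366 junctions placed on chromosomes, and the 2 intervals are among 107 RDC windows of the study's list.

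LAM-HTGTS is an assay of genome-wide translocation by linear amplification. It cuts a fixed bait site with Cas9 and sequences from the bait into whatever DNA end, the prey, was joined to it. The XP cells were NestinCre+ Xrcc4-/- p53-/- neural progenitor cells (NPCs) derived from ES cells, all of 1 line, Nxp010, and the study's sources call their repeats technical in one place and biological in another, so that their p-values measure the spread between repeats that may be technical. The wild-type (WT) cells were primary neural stem and progenitor cells of the brains of late C57BL/6J embryos, with biological repeats. Xrcc4 is a core factor of non-homologous end-joining, so XP cells join ends without it, and controls and treated XP libraries share both deletions and the Cre. Aphidicolin (Aph), a DNA polymerase inhibitor, was given at 0.5 µM for 72 h and then 0.25 µM for 24 h. ART558, an inhibitor of polymerase theta, was given at 5 µM for 72 h and then 2.5 µM for 24 h, and DMSO was the solvent control. The 45 XP libraries had baits on chromosome 6, 8, 12 or 14, and the 15 WT libraries, all treated with Aph or with Aph and ART558, had baits on chromosome 6 or 14. The chromosome 14 XP libraries, DMSO and Aph only, and 7 further chromosome 6 DMSO libraries are the parental controls of a promoter/enhancer deletion experiment.

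Neuregulins are EGF-like ligands, and Nrg3 is a membrane-anchored member made mainly by neurons that signals through ErbB4. ErbB4 is a receptor tyrosine kinase that binds neuregulins and pairs with other ErbB receptors, and it acts in the migration and wiring of interneurons. ErbB2, a close relative, has no known ligand of its own, and ErbB3 has little kinase activity, so that ErbB4 is the neuregulin receptor that can both bind and signal alone.

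A junction read carries the end of the bait, the join and the start of the prey. The junctions below show the kinds of join seen at both genes. The reads with 7 bp in Nrg3 and 5 bp in Erbb4 were taken for the longest micro-homology among the matching XP Aph reads of the gene. Each other read was the one nearest to the gene's median junction position among the reads of its kind, and all 8 come from the reads that matched the genome exactly over 20 bases of bait and 30 of prey. Bait is on the left and prey on the right, and capitals mark micro-homology, bases that both ends share at the join, or inserted bases.
Nrg3 direct join, XP with Aph: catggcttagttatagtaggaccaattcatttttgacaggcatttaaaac
Nrg3 micro-homology of 2 bp, XP with Aph: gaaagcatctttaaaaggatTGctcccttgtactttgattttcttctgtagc
Nrg3 micro-homology of 7 bp, XP with Aph: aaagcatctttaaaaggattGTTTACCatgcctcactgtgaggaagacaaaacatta
Nrg3 insertion of 4 bp, XP with Aph: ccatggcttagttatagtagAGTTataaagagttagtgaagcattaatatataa
Nrg3 direct join, WT with Aph and ART558: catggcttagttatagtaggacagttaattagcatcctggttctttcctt
Erbb4 micro-homology of 3 bp, XP with Aph: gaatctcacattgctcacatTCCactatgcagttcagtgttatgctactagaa
Erbb4 micro-homology of 5 bp, XP with Aph: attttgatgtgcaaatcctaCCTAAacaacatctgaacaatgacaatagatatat
Erbb4 insertion of 10 bp, XP with Aph: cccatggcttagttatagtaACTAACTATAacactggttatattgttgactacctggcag

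The 5 Nrg3 reads share the chromosome 14 bait. Its 2 direct joins, one from each genotype, left the same bait end and reached prey about 4 kb apart in the gene, at chr14:38972940-38972969 and chr14:38977082-38977111 on the plus strand. The reads with 2 bp and 7 bp of micro-homology had lost 28 and 22 bases of bait before the join, and reached chr14:38972318-38972349 on the plus strand and chr14:39279786-39279822 on the minus strand. The read with the 4 bp insertion had lost 1 bait base and reached chr14:38949239-38949268 on the plus strand. Of the 3 Erbb4 reads, the one with 3 bp came from the chromosome 12 bait (chr1:68553510-68553542, plus strand), the one with 5 bp from the chromosome 8 bait (chr1:68700398-68700432, plus strand) and the insertion from the chromosome 14 bait (chr1:68438218-68438247, minus strand).

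The libraries held 133 to 36999 placed junctions (median 7737), of which 208394 in all lay more than 1 Mb from the bait break. They come from 11 sequencing runs, read from the read names. All WT libraries share 1 run that holds no XP library, so genotype, cell source and run cannot be told apart. Density is given as junctions per 1000 junctions per Mb, the measure that the study's methods use. The total was the library's junctions off the bait chromosome. For Nrg3 with the bait on its own chromosome, where capture is raised by proximity, the total was all junctions more than 1 Mb from the bait break, and these libraries are kept apart. The bait break on chromosome 14 lies 44.3 Mb from Nrg3.

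With the chromosome 14 bait, Nrg3 was densely joined in XP cells under Aph. The 3 Aph libraries held 46, 59 and 38 Nrg3 junctions, or densities of 22.1, 19.4 and 11.8, and the 4 DMSO libraries held 4, 0, 1 and 3, or 3.35, 0, 0.929 and 3.23. Every Aph library lay above every DMSO library. The total of DMSO replicate 2, however, was only 154 junctions. Taking 3 counts as the limit that a count of 0 allows, its density could be up to 17.6, above the 11.8 of the lowest Aph library. The means were 17.7 ± 5.35 (SD, n = 3) and 1.88 ± 1.68 (n = 4), and they differed by 15.9 (exact permutation test over libraries, two-sided, p = 0.0571, where 3 libraries against 4 allow none smaller). The groups of 88.9% of the windows tested, 8 of 9, were separated in the same way. Only 9 of 107 windows had the 20 junctions needed, most of them from the Aph libraries, and nothing is read from that share. Gpc6 and Pcdh9, on the same chromosome as the bait, had differences of 15.3 and 14.2. Aph replicate 3 was sequenced in another run, and without it, that is within the run holding both treatments, the difference was 18.8 (exact permutation p = 0.133). Without DMSO replicate 2 the difference was 15.2 (exact permutation p = 0.1).

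In XP cells with Aph the junctions lay in the gene rather than beside it. With this bait, the pooled density was 17.1 across Nrg3 and 0.792 and 1.19 in the flanks of 1 Mb below and above it. The corresponding DMSO values were 2.38 in the gene and 0.328 and 0.656 in the flanks, from 8, 1 and 2 junctions. In XP DMSO libraries of the other baits the density in the gene was close to that of the flanks, at 0.520 against 0.370 and 0.296. WT cells with this bait are given as pooled counts, with no test of the treatment. Under Aph they held 10 junctions in the gene and 4 and 17 in the flanks below and above it, and with ART558 added 35 in the gene and 10 and 6 in the flanks, or densities of 2.14, 0.675 and 0.405.

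Erbb4 was hit less often with this bait. The Aph libraries held 1, 5 and 4 junctions, or densities of 0.685, 2.35 and 1.79, and the DMSO libraries 1, 0, 0 and 1, or 1.09, 0, 0 and 1.43. The groups overlapped. Their means were 1.61 ± 0.847 (n = 3) and 0.630 ± 0.741 (n = 4), and the difference of 0.977 was within the spread between libraries (exact permutation p = 0.229). Without Aph replicate 2 it was 0.607. Per 1000 of all junctions of the library the Erbb4 groups did not overlap (difference 0.300, exact permutation p = 0.0571, the smallest possible). These libraries were not among those that singled out Erbb4. With 12 junctions in all, Erbb4 fell short of the 20 needed to enter the set of windows tested together.

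**Figure D1:**
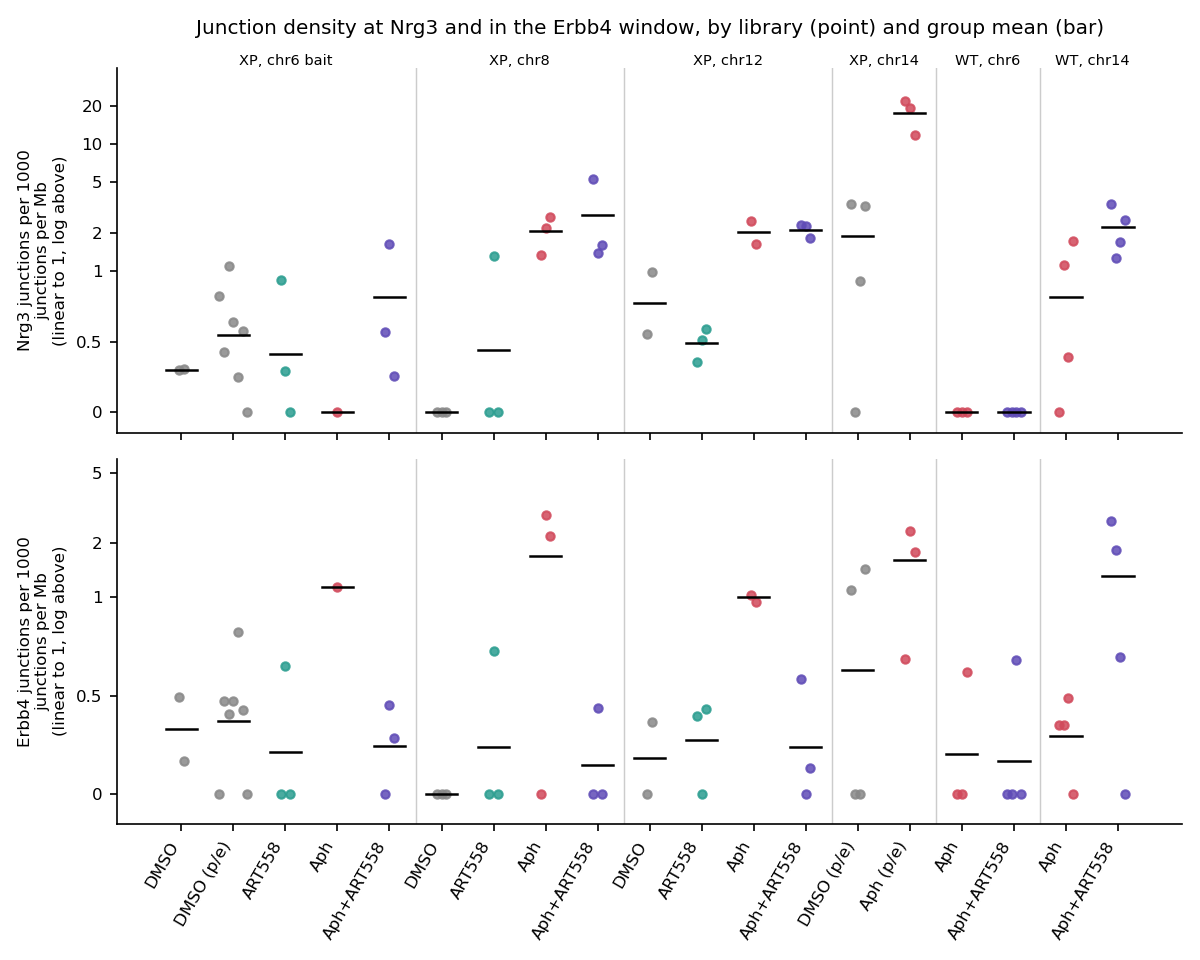
Density of junctions in Nrg3 (top) and in the Erbb4 window (bottom), in junctions per 1000 junctions per Mb, for each library (point) and as the mean of each group (bar), by genotype, bait and treatment; p/e marks parental libraries of the promoter/enhancer experiment, and the axis is linear up to 1 and logarithmic above. The 3 Aph libraries of the chromosome 14 bait lie between 11.8 and 22.1 for Nrg3, above all other libraries shown.

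In the libraries with baits on chromosomes 6, 8 and 12, the mean densities of both genes were of similar size under Aph alone and lay farther apart with ART558 added. These are the libraries that chose the pair, and their values are a description. Under Aph, Nrg3 stood at 1.72 ± 0.980 (SD, n = 6) and Erbb4 at 1.38 ± 1.02 (n = 6). Under Aph with ART558, Nrg3 stood at 1.91 ± 1.46 (n = 9) and Erbb4 at 0.210 ± 0.234 (n = 9). The Aph means mix the baits unequally, and by bait the genes already differed under Aph alone. At chromosome 12 Nrg3 had 2.48 and 1.62 and Erbb4 1.03 and 0.976. At chromosome 6 they had 0 and 1.14 in a single library, and at chromosome 8 their ranges overlapped.

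Nrg3 held 16 and 11 junctions in the Aph libraries of the chromosome 12 bait, 2, 5 and 4 in those of the chromosome 8 bait and 0 in the single library of the chromosome 6 bait. With ART558 added it held 13, 11 and 15, then 2, 7 and 7, then 2, 8 and 1. As densities, the chromosome 12 libraries were 2.48 and 1.62 without ART558 and 2.29, 2.27 and 1.82 with it, so these ranges overlapped. At chromosome 8 they were 1.34, 2.19 and 2.66 without ART558 and 5.34, 1.39 and 1.60 with it. The value of 5.34 rests on 2 junctions in a library of 949. The count of 0 at chromosome 6 allows a density of up to 0.621, taking 3 counts as the limit that a count of 0 allows here and below.

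Erbb4 held 6 and 6 junctions in the Aph libraries of the chromosome 12 bait, 0, 6 and 3 at chromosome 8 and 5 at chromosome 6. With ART558 added it held 3, 0 and 1, then 0, 2 and 0, then 0, 2 and 1. As densities, the chromosome 12 libraries were 1.03 and 0.976 without ART558 and 0.584, 0 and 0.134 with it. At chromosome 8 they were 0, 2.90 and 2.21 against 0, 0.438 and 0. The chromosome 6 library with Aph had 1.14 (95% Poisson interval 0.371 to 2.67, counting error only), and the 3 with both drugs had 0, 0.451 and 0.283. The Aph arm of chromosome 6 is 1 library, and at chromosome 8 replicate 1 of Aph alone was at 0. The share of RDC windows with the same order was not counted, and nothing is read from the order of these values. Only at chromosome 6 did both treatments share a sequencing run, and elsewhere treatment and run cannot be told apart.

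DMSO libraries of these baits gave the background. Nrg3 was at 0.427 ± 0.373 (n = 14; lowest 0, median 0.367, highest 1.10) and Erbb4 at 0.259 ± 0.268 (n = 14; lowest 0, median 0.267, highest 0.823). In 4 of 14 DMSO libraries Nrg3 had no junction, and in 6 of 14 Erbb4 had none. All 3 DMSO libraries of the chromosome 8 bait were at 0 for both genes, and their 2423 junctions off the bait chromosome allow densities of up to 1.12 for Nrg3 and 1.24 for Erbb4.

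With ART558 and no Aph, neither gene differed from DMSO beyond the spread between libraries. For Nrg3, the ART558 libraries held 2, 2 and 3 junctions at chromosome 12, 2, 1 and 0 at chromosome 6 and 0, 2 and 0 at chromosome 8. Replicate 3 of the chromosome 8 bait held only 133 junctions, 28 of them off the bait chromosome. Its counts of 0 allow densities of up to 97.0 for Nrg3 and 107 for Erbb4. Averaged over the baits, the densities were 0.446 with ART558 and 0.359 with DMSO in the inhibitor experiment, and differed by 0.0869 (exact permutation within baits, two-sided, p = 0.67, adjusted p = 0.97 over 63 windows). For Erbb4, they were 0.245 and 0.171, a difference of 0.0740 (exact permutation p = 0.63). No window passed an adjusted p under 0.05 in this comparison (0% of 63, by permutation tests with Benjamini-Hochberg adjustment), and 7 windows had an unadjusted p under 0.05. Per 1000 of all junctions the Nrg3 difference was 0.145 (exact permutation p = 0.05). With the library of 133 junctions left out, the differences were 0.160 for Nrg3 and 0.114 for Erbb4. On the baits where both treatments share a run, chromosomes 6 and 12, the difference turned to -0.0888 for Nrg3 and -0.0100 for Erbb4. Without ART558 replicate 2 of the chromosome 8 bait it was -0.0592 and -0.00667, and without ART558 replicate 1 of the chromosome 6 bait that of Nrg3 was -0.00111, so neither direction is settled.

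In WT cells, Nrg3 junctions were found only with the chromosome 14 bait. Its 4 Aph libraries held 0, 4, 1 and 5 junctions, or densities of 0, 1.13, 0.390 and 1.74, and its 4 libraries with Aph and ART558 held 11, 6, 6 and 12, or 3.36, 1.26, 1.69 and 2.52. The ranges overlapped, since 1 Aph library lay above 2 of the libraries with both drugs. The means were 0.815 ± 0.775 and 2.21 ± 0.929 (n = 4 each), and they differed by 1.39 (exact permutation over libraries, two-sided, p = 0.0857, adjusted p = 0.274 over 16 windows). This was the largest difference among the 16 windows. Windows entered on the junctions of both arms together, and those of Nrg3 were 10 under Aph and 35 with both drugs. Nothing is therefore read from this rank, or from the share of separated windows given next. For the 16 windows the adjusted p was under 0.05 in 0% and the unadjusted p in 2. Their groups were fully separated, with ART558 higher, in 12.5%.

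Repeated reads of 1 position bear on this result. Of the 5 Nrg3 junctions of WT Aph replicate 4, 4 lay at a single position and strand. With each position counted once per library, the difference was 1.67, and the exact permutation p of 0.0286 was the smallest that 4 libraries against 4 allow. Whether such repeats are 1 molecule read several times was not tested, as the reads carry no molecular identifiers.

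The WT libraries of the chromosome 6 bait held no Nrg3 junction. The 3 Aph libraries had 3524 junctions off the bait chromosome and the 4 with ART558 had 5287, which allow Nrg3 densities of up to 0.771 and 0.514, so a level like that of XP DMSO was not detectable at this depth.

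Erbb4 in WT cells showed a like order with more overlap. With the chromosome 14 bait it held 1, 1, 1 and 0 junctions under Aph and 7, 7, 2 and 0 with ART558 added. The densities were 0.351, 0.352, 0.488 and 0 under Aph, and 2.67, 1.84, 0.696 and 0 with ART558, so that 3 of 4 libraries with both drugs lay above all with Aph alone. With the chromosome 6 bait 1 of 3 Aph libraries and 1 of 4 libraries with both drugs held a single junction. The mean difference over both baits was 0.484 (exact permutation within baits, p = 0.229, adjusted p = 0.549 over 32 windows), and 0% of these windows passed an adjusted p under 0.05, while 6 had an unadjusted p under 0.05. Without replicate 1 of the chromosome 14 libraries with both drugs the Erbb4 difference was 0.256, with each position counted once it was 0.270, and with the chromosome 14 bait alone it was 1.005 (exact permutation p = 0.229).

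Both genes stood higher in XP than in WT cells under Aph with the chromosome 14 bait. For Nrg3 the difference was 16.9, and for Erbb4 it was 1.31 (both exact permutation p = 0.0571, the smallest possible). All XP libraries lay above all WT libraries at both genes. They did so in 90.9% of the windows tested, 10 of 11, but these windows mostly reached 20 junctions through the XP libraries, and nothing is read from that share. Per 1000 of all junctions of the library, bait chromosome included, the Erbb4 difference was 0.168 (exact permutation p = 0.229) and that of Nrg3 4.29.

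The Nrg3 densities of the chromosome 14 bait rest on capture within 1 chromosome and on another total, so their place among the other baits is that of the values alone. In order of the mean over groups, Nrg3 density ran from XP Aph at chromosome 14 (17.7), through XP Aph with ART558 at chromosome 8 (2.78), WT Aph with ART558 at chromosome 14 (2.21), XP Aph with ART558 at chromosome 12 (2.13), XP Aph at chromosome 8 (2.07) and XP Aph at chromosome 12 (2.05), to XP DMSO at chromosome 14 (1.88). From the second place of these on, neighbours differed by less than the larger of their SDs. Below them came XP Aph with ART558 at chromosome 6 (0.820), WT Aph at chromosome 14 (0.815), XP DMSO at chromosome 12 (0.775) and the remaining groups (0 to 0.546). Erbb4 spanned less. Its highest groups were XP Aph at chromosome 8 (1.70), XP Aph at chromosome 14 (1.61), WT Aph with ART558 at chromosome 14 (1.30), XP Aph at chromosome 6 (1.14, 1 library) and XP Aph at chromosome 12 (1.002), and all other groups lay at or under 0.630.

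Nearly all junctions were intronic. Both genes lie on the minus strand (Nrg3, ENSMUSG00000041014.17, 1104.137 kb; Erbb4, ENSMUSG00000062209.15, 1075.874 kb, GENCODE M21), so lower coordinates lie farther into the gene. Of 343 Nrg3 junctions 2 fell in an exon, and of 94 Erbb4 junctions none did, while exons cover 0.617% and 0.268% of the intervals.

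Pooled over all libraries, Nrg3 junctions gathered in the second intron. Of the 343 junctions, 143 came from the XP Aph libraries of the chromosome 14 bait. Introns were not counted by treatment, so the gathering is not shown for cells without Aph. In the transcript Nrg3-201, intron 2 held 163 junctions (47.5%) on 31.1% of the interval (chr14:38668292-39011968), and intron 1 held 140 (40.8%) on 41.6% (chr14:39012099-39471971). Introns 3 and 4 held 29 and 11, and introns 5 to 9, which are short, held none. The antisense gene Nrg3os (chr14:38898302-38958794), within intron 2, covers 5.48% of the interval and overlapped 31 junctions. In Erbb4-202, intron 1 held 29 Erbb4 junctions (30.9%) on 35.9% of the window and intron 2 held 16 of 94 on 18.0%, near the share of their length. Intron 3 (chr1:68396316-68560495) held 26 (27.7%) on 16.4%. Introns 20, 19 and 4 held 9, 6 and 4.

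Measured from the transcription start, the junctions of Nrg3 in XP cells under Aph had their median near the middle of the gene, and so had some groups without Aph. In XP cells their median distance was 483 kb with the chromosome 14 bait (quartiles 374 and 607 kb, 143 junctions), 513 kb with the other baits (38 junctions) and 545 kb when ART558 was added (66 junctions). In DMSO libraries of the other baits the median was 307 kb (quartiles 211 and 698 kb, 31 junctions), but it was 528 kb in those of the chromosome 14 bait (8 junctions) and 559 kb with ART558 alone (12 junctions). In WT cells it was 501 kb with Aph and ART558 (35 junctions) and 903 kb with Aph alone (10 junctions), or 256 kb with each of the 5 positions counted once. The mean position under Aph with ART558 minus that under Aph alone was -11.9 kb over the baits on chromosomes 8 and 12 (exact permutation within baits, p = 0.71), at 584 against 569 kb and 513 against 552 kb. Without Aph replicate 1 of the chromosome 8 bait this difference was 12.7 kb, so its direction is not settled. Chromosome 6 gave no value, as its Aph library held no Nrg3 junction.

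Erbb4 junctions lay at a median of 603 kb under Aph at the other baits (26 junctions), 459 kb at chromosome 14 (10 junctions) and 532 kb in DMSO (19 junctions). Under Aph with ART558 they lay at a median of 606 kb and between 322 and 691 kb (9 junctions).

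No position was shared between libraries. Nrg3 held 308 different positions in all libraries, of which 30 were seen more than once in a library, and Erbb4 held 84, of which 9 were. Neighbouring positions were a median of 2.02 kb apart in Nrg3 and 9.96 kb in Erbb4, and the widest gap was 27.8 kb and 48.3 kb. Breaks were thus spread along both genes rather than fixed to a few sites.

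The strand of the prey shows which side of a break was captured. Minus-strand prey runs from the junction toward the 3' end of these genes and plus-strand prey toward the 5' end. In Nrg3 of XP cells, minus-strand prey made up 74.4% of the 125 junctions beyond the midpoint of the interval, and plus-strand prey 64.2% of the 173 before it. In Erbb4 the corresponding shares were 79.1% of 43 and 73.3% of 30. Pooled over XP libraries with Aph, minus-strand prey of both genes lay farther from the start than plus-strand prey, so that the captured prey runs outward from the middle of the gene on either side.

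**Figure D2:**
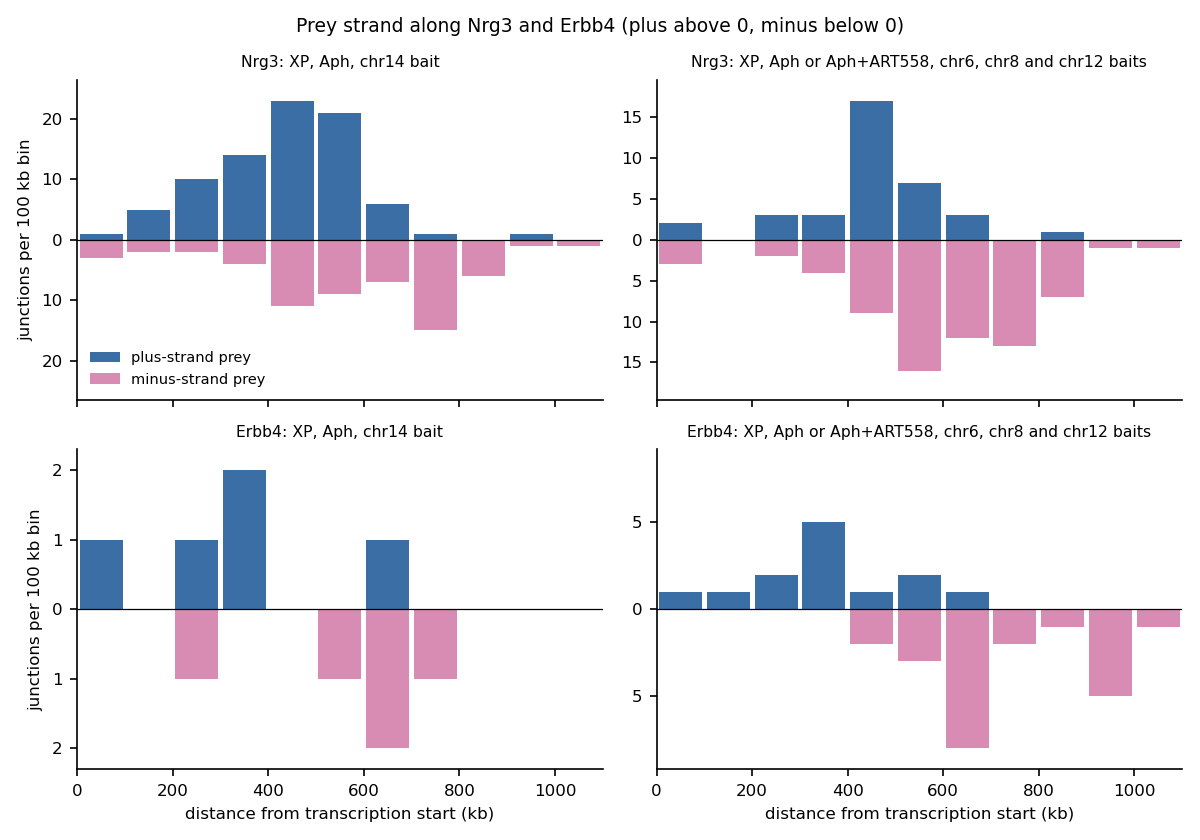
Number of XP junctions in bins of 100 kb along Nrg3 (top) and the Erbb4 window (bottom) by distance from the transcription start in kb, with plus-strand prey above 0 and minus-strand prey below. With the chromosome 14 bait and Aph, Nrg3 held 23 plus-strand and 11 minus-strand junctions from 400 to 500 kb, and 1 and 15 from 700 to 800 kb.

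For Nrg3, this separation was measured in each of the 8 XP libraries with at least 3 junctions on each strand. With the chromosome 14 bait and Aph, minus-strand prey lay on average 105, 156 and 121 kb farther from the start than plus-strand prey. With the chromosome 12 bait it was 150 kb under Aph, in the 1 library that qualified, and 73.6 and 281 kb under Aph with ART558. With ART558 added it was 261 kb at chromosome 8 and -80.4 kb at chromosome 6. Minus-strand prey was thus farther in 7 of 8 libraries, and the mean was 133 ± 113 kb (SD, n = 8; two-sided exact sign-flip permutation test, p = 0.0234, where 0.00781 is the smallest possible). With at least 5 junctions on each strand all 6 libraries were positive, and with at least 2, 9 of 11. The p rests on all baits together, and with the chromosome 14 bait alone the 3 libraries averaged 128 kb (exact permutation p = 0.25). Without that bait the other 5 averaged 137 kb (exact permutation p = 0.188), and with medians in place of means the separation was 117 kb (exact permutation p = 0.0859). All 8 libraries had received Aph. Of the 11 with at least 2 junctions on each strand, 1 was a DMSO library, replicate 4 of the parental chromosome 6 libraries, and its separation was -202 kb. Pooled over DMSO libraries of the other baits, 17 plus-strand and 14 minus-strand Nrg3 junctions differed by -14.9 kb, and in those of the chromosome 14 bait 2 and 6 differed by 80.9 kb.

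Erbb4 was too thinly covered for this test. Only the second Aph library of the chromosome 12 bait held 3 of each strand, with a separation of 485 kb, and 1 library gives no test. With at least 2 of each strand, the separations were 471, 485, 28.8, 367 and 512 kb, all of them under Aph and all positive. Pooled DMSO libraries of the other baits gave -1.27 kb (9 plus-strand and 10 minus-strand junctions), and WT libraries with Aph and ART558 and the chromosome 14 bait -75.3 kb (7 and 9). Pooled over XP libraries with Aph, with or without ART558, 18 plus-strand and 27 minus-strand Erbb4 junctions lay 345 kb apart. This was the widest separation among the 93 RDC windows that held at least 10 of each strand, whose median was 91.4 kb and of which 72 were positive, while Nrg3 with 142 kb ranked 28 of 93. The pooled Erbb4 Aph libraries include those that chose the gene, and the ranks are a description.

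**Figure D3:**
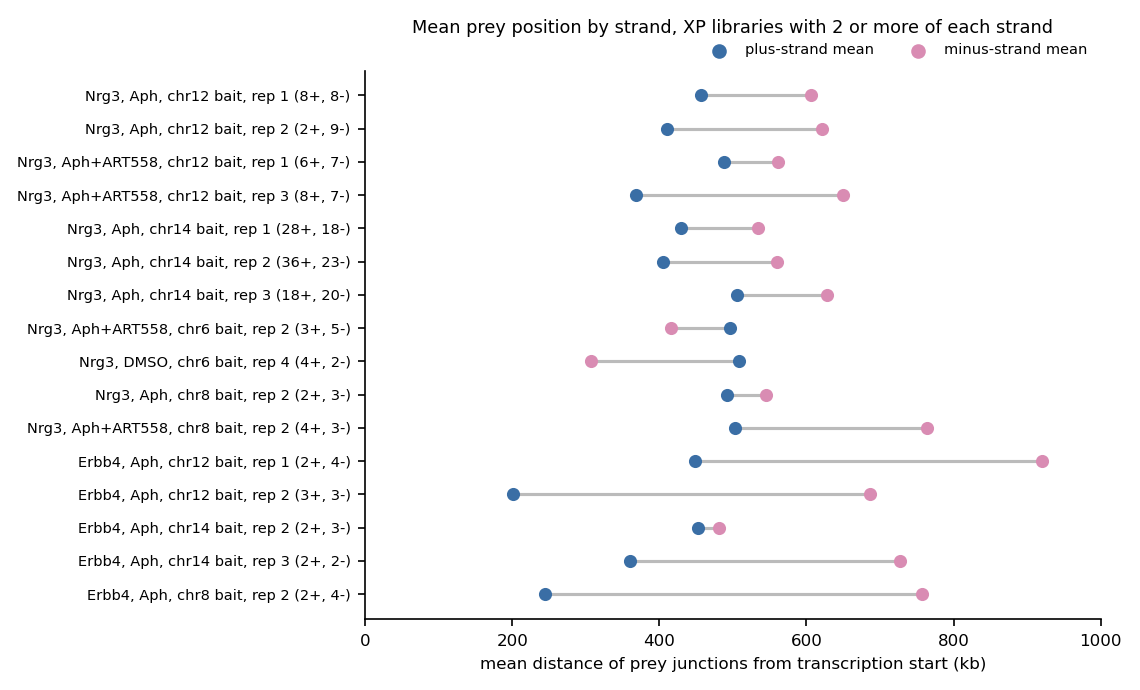
Mean distance of plus-strand (blue) and minus-strand (pink) prey from the transcription start in kb, for each XP library with at least 2 junctions on each strand; the counts stand in brackets. Minus-strand means lie farther out in 9 of 11 Nrg3 libraries and in 5 of 5 Erbb4 libraries.

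How the ends were joined was read from the bases that bait and prey share. Of the 343 Nrg3 junctions, 43 were direct joins with no shared base, 50 shared 1 base, 75 shared 2 and 44 shared 3, and 71 carried an insertion. Of the 94 Erbb4 junctions, 8 were direct, 15 shared 1 base, 18 shared 2 and 21 shared 3, and 16 carried an insertion. Micro-homologies of at least 2 bp were 59.7% A or T in Nrg3 against 62.6% of the interval, and 59.3% against 64.0% in Erbb4. They had no fixed sequence. The most frequent in Nrg3 was AG with 13 of 159 positions, and in Erbb4 TC with 4 of 46.

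In XP cells, direct joins had a lower pooled share at both genes than elsewhere in DMSO and under Aph. Under Aph they made up 16 of 141 Nrg3 joins of 0 to 10 bp (11.3%, 95% Wilson interval 7.11 to 17.6) and 1 of 33 Erbb4 joins (3.03%, 0.537 to 15.3), against 24.5% of all other junctions of these libraries. The baits are mixed unequally in these pools, since 112 of the 141 Nrg3 joins came from the chromosome 14 bait. At the baits on chromosomes 6, 8 and 12 the Nrg3 share under Aph was 20.7% against 25.7% elsewhere, and at chromosome 14 it was 8.93% against 20.1%, with a mean of 12.5% in the other RDC windows. In DMSO the shares were 3 of 36 for Nrg3 (8.33%) and 0 of 17 for Erbb4 (interval up to 18.4%), against 14.04%. With ART558 alone Nrg3 had 4 of 10 and Erbb4 1 of 6, against 35.3%, and with both drugs 7 of 43 (16.3%) and 1 of 5, against 33.2%. The intervals of the small groups span most of the range, and these pooled counts carry no test. The intervals cover counting error only.

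**Figure D4:**
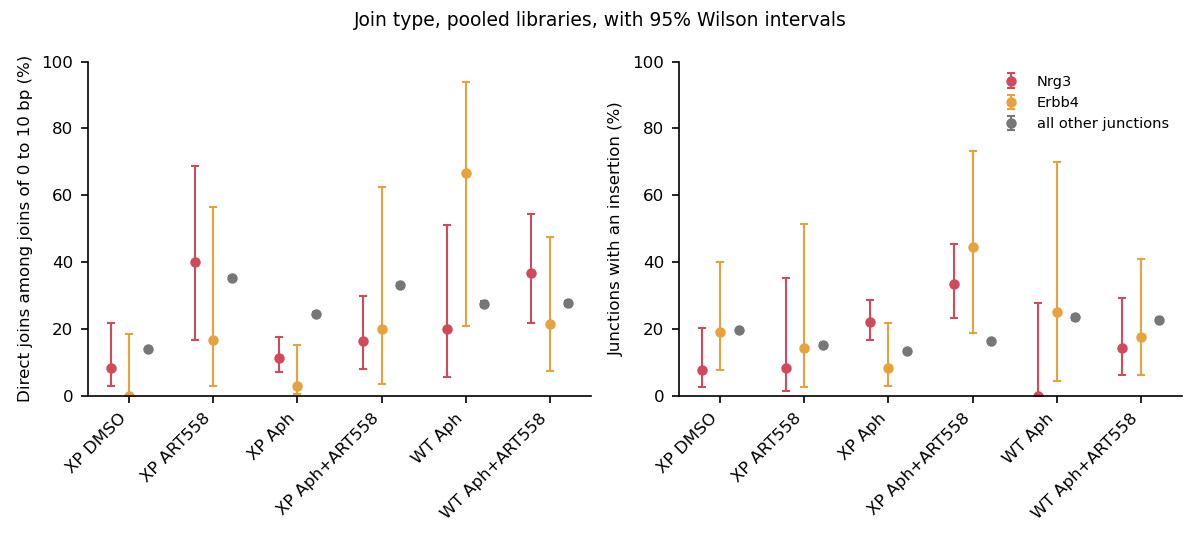
Share of direct joins among joins of 0 to 10 bp (left) and share of junctions with an insertion (right), in percent, for Nrg3, Erbb4 and all other junctions by genotype and treatment, over all baits, with 95% Wilson intervals. Under Aph in XP cells direct joins were 11.3% at Nrg3, 3.03% at Erbb4 and 24.5% elsewhere, and insertions 22.1%, 8.33% and 13.4%.

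Within single libraries the deficit of direct joins at Nrg3 did not exceed the spread. In the 9 XP libraries of the baits on chromosomes 6, 8 and 12 with at least 5 usable Nrg3 joins, the Nrg3 share was lower than that of the other junctions in 7 and higher in 2, with a mean difference of -7.81 ± 17.3 percentage points (two-sided exact sign-flip permutation test, p = 0.219). The single libraries ranged from -36.5 to 21.8 points. The mean was -4.23 points (exact permutation p = 0.438) without the lowest, replicate 3 of the chromosome 12 bait with both drugs, and -11.5 points (exact permutation p = 0.0547) without the highest, Aph replicate 2 of the chromosome 8 bait. With at least 8 joins per library it was -20.4 points (exact permutation p = 0.125), and with at least 3 it was -7.93 points (p = 0.0553 by the same test).

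In XP cells the share of direct joins at the pair was 11.4 points higher with ART558 added to Aph, averaged over 3 baits, and this was within the spread (exact permutation within baits, p = 0.21). The shares were 4 of 30 against 4 of 31 at chromosome 12, 2 of 10 against 2 of 18 at chromosome 8 and 2 of 8 against 0 of 5 at chromosome 6. With insertions kept in the total, the difference was 4.89 points (exact permutation p = 0.475). Without the single Aph library of the chromosome 6 bait, the difference was 4.66 points. That library held no Nrg3 join, so Nrg3 alone could be compared only at chromosomes 8 and 12, where the difference was -4.64 points (exact permutation p = 0.7). In WT cells the difference over both baits was -46.2 points (exact permutation p = 0.7), and it is set by 1 junction in each arm at chromosome 6, a direct join under Aph and 1 with micro-homology under both drugs. Without either of these libraries, that is with chromosome 14 alone, the shares were 14 of 43 and 3 of 12, a difference of 7.56 points (exact permutation p = 0.629). For WT Nrg3 alone it was 16.7 points, from 11 of 30 and 2 of 10.

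Insertions at Nrg3 had a higher pooled share with Aph than without it, with intervals that overlap between DMSO and Aph. They made up 3 of 39 junctions in XP DMSO (7.69%, Wilson interval 2.65 to 20.3), 40 of 181 under Aph (22.1%, 16.7 to 28.7) and 22 of 66 under Aph with ART558 (33.3%, 23.2 to 45.3). All other junctions of these libraries did not follow that order, with 19.7%, 13.4% and 16.4%. At the chromosome 14 bait, however, the other RDC windows had a mean of 14.5% ± 7.01 in DMSO (n = 4) and 19.4% ± 0.663 under Aph (n = 3), beside 21.3% ± 4.02 at Nrg3 under Aph. With each position counted once the Nrg3 shares were 7.69%, 21.3% and 33.3%. At Erbb4 the insertions made up 4 of 21, 3 of 36 and 4 of 9 junctions with repeats kept, and 4 of 21, 3 of 32 and 3 of 8 with each position once. Inserts at Nrg3 had a median of 4 bases under Aph and 7.5 with ART558 added, and the longest was 26 bases. These shares pool libraries and carry no test.

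At the chromosome 14 bait, the Nrg3 joins of XP cells with Aph kept more of the bait end than other joins on that chromosome. Bait loss is counted here from the most frequent bait end. More than 10 bases were lost in 32.6%, 45.8% and 47.4% of the Nrg3 junctions in the 3 libraries, against 60.1%, 63.7% and 69.4% of the junctions elsewhere on chromosome 14. The Nrg3 value was lower in 3 of 3 libraries, with means of 41.9% ± 8.10 and 64.4% ± 4.69 (SD, n = 3), and 80.1% ± 2.80 for joins to other chromosomes and 57.5% ± 6.11 for the other RDC windows. In DMSO, with 8 Nrg3 junctions in 3 libraries, it was 30.6% ± 33.7 at Nrg3 (n = 3) and 52.5% ± 3.94 elsewhere on chromosome 14 (n = 4), a gap in the same direction. In WT cells with Aph and ART558 it was 79.0% ± 10.5 at Nrg3 and 77.9% ± 1.69 elsewhere on chromosome 14 (n = 4). Direct joins at Nrg3 in the 3 XP libraries were 5.26%, 9.09% and 13.3%, and elsewhere on the chromosome 10.7%, 11.4% and 11.2%. With 3 libraries an exact sign-flip permutation test cannot go below p = 0.25, and none was run.

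The other ligands and receptors of the family were mostly short and rarely hit. Of 15 genes examined, 4 held at least 20 junctions over all libraries, 10 held 1 to 19 and Areg, encoding amphiregulin, held none. The 4 were Nrg3 with 343, Erbb4 with 102 over its whole gene body, Nrg1 with 100 and Nrg2 with 23. Nrg1, the neuregulin that binds ErbB3 and ErbB4, spans 1069.479 kb, nearly the length of the pair, and its mean XP density over the baits of other chromosomes was 0.322 under Aph and 0.369 in DMSO. Those of Nrg3 over the baits of other chromosomes were 1.72 and 0.427. Nrg2, of 179.729 kb, had 0.489 and 0.479. The receptor genes Egfr, Erbb2 and Erbb3 held 9, 2 and 3 junctions, and the ligand genes Tgfa, Nrg4, Hbegf and Egf 15, 3, 3 and 2. For Nrg1, ART558 minus DMSO was -0.477 (exact permutation within baits, p = 0.103, adjusted p = 0.669 over gene bodies). That test included the bait on chromosome 8, which also carries Nrg1. Over the baits of other chromosomes, ART558 had 0.509 (n = 6) against 0.369 in DMSO (n = 15), the reverse order.

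The pattern of each gene over the groups of genotype, treatment and bait was set beside those of 71 RDC windows with at least 60 junctions. Group means share libraries, depth and total, and the correlations are a description over 14 groups for Nrg3, without the chromosome 14 bait, and 18 for Erbb4. Nrg3 was most like Naaladl2 (Pearson r = 0.814), Nlgn1 (0.771) and Astn2 (0.714), where the median window had 0.148. Erbb4 was most like Anks1b (0.859), Auts2 (0.826) and Ctnnd2 (0.735), where the median was 0.316. Nrg3 and Erbb4 themselves had r = 0.313 over 14 groups.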

How the data were processed

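LAM-HTGTS tables of 60 libraries were analysed. After demultiplexing and trimming, the authors aligned reads to mm10/GRCm38 with Bowtie2 in the HTGTS pipeline (version not given in the sources used here) and deposited 1 row per junction with coordinates, strand and read positions, unnormalized. An incomplete last line of 1 table was left out. Python 3.11.15, NumPy 2.4.6, pandas 2.3.3, SciPy 1.17.1, Matplotlib 3.10.9 and GENCODE M21 were used. The prey of all 437 junctions was checked against the genome, with at least 13 of the first 15 bases matching. Repeated reads were kept. Micro-homology is the overlap of bait and prey in the read, 0 to 10 bp, and insertions were counted apart.

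Groups follow the labels. Libraries were compared by exact permutation, two-sided, and within each bait where several were combined. The density test was tried on simulated counts, and the tests of join shares, position and strand were not. RDC windows of 1 Mb, with names and positions from the study's supplement, entered with at least 20 junctions in a comparison, with Benjamini-Hochberg adjustment at 0.05. Members, pathway list, alternatives and tests were chosen with earlier results of these data known. Named are both genes, pathway genes with at least 20 junctions and the 3 windows most like each gene, off chromosomes 6, 8, 12 and 14. Gpc6 and Pcdh9, and the pathway genes with fewer junctions, were named after their values were seen. Alternatives were other windows, totals, minimums, each position once, medians, small libraries left out, each library left out and replicate blocks. Of these, shared-run baits, the chromosome 14 bait alone for WT cells and Aph libraries only were added after seeing the data.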

Additional observations from a re-analysis of the deposited data

Results flagged for a closer look

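In 10 sets of 4 or 7 libraries examined for a library apart from the rest (5 groups and 2 genes), 1 stood out. The Erbb4 density of WT replicate 3 with Aph and ART558 and the chromosome 6 bait was 0.679, from a single junction, where the other 3 libraries of its group had none, so that a single junction alone sets it apart. Chance marks about 1 in 20 sets of continuous values in this way, a rate that does not describe such a set.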

How the results depend on the processing

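Of 221 alternative values of 15 results, 11 turned direction, 3 fell short of the threshold where the reported value passed it and 1 passed it where the reported value did not. The 12 of WT Nrg3 at the chromosome 6 bait are 0 against 0 and carry no direction. The Aph effect at Nrg3 and Erbb4 with the chromosome 14 bait kept its direction in all 11 alternatives of each gene, but its exact permutation test cannot reach p = 0.05. For WT Nrg3, each position once gave 1.67 (exact permutation p = 0.0286) in place of 1.39. ART558 minus DMSO ran from -0.0592 to 0.160 for Nrg3 and from -0.00667 to 0.135 for Erbb4 with single libraries left out, and was -0.0888 and -0.0100 on baits with a shared run. Those of Nrg3 that turned were -0.00111 without ART558 replicate 1 of the chromosome 6 bait and -0.0592 without replicate 2 of the chromosome 8 bait. The share of direct joins gave -4.64 points in XP and 16.7 in WT cells for Nrg3 alone, and 7.56 in WT cells with the chromosome 14 bait, with a range of -55.2 to 7.56 with single libraries left out. Nrg3 strand separation was 117 kb with medians (exact permutation p = 0.0859), 128 kb for chromosome 14 alone and 137 kb without it. With single libraries left out the position difference ran from -30.7 to 12.7 kb, with 12.7 kb without Aph replicate 1 of the chromosome 8 bait. With a replicate block it was -33.0 kb (exact permutation p = 0.563). The causes of these changes were not tested. With a replicate block the Aph effect at Nrg3 was 16.3 (exact permutation p = 0.25, the smallest possible). No comparison run with a block changed its call, and the XP against WT comparisons had none. For the Aph effect with the chromosome 14 bait, the replicate numbers do not pair the libraries, since none of the 3 pairs correlated above 0.1. Depth limits Erbb4, with 0 to 7 junctions per library, and the WT libraries of the chromosome 6 bait.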
